A study of Homo sapiens with 6 samples.

Results

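The regions described here are promoters that the study classed as N-Myc-non-binding and whose gene had no H3K4me3 peak call in either of 2 chromatin immunoprecipitation libraries. They were chosen by gene name: a row of the non-binding promoter table was a member when its gene stood in neither deposited list of genes with an H3K4me3 peak within 1 kb of the transcription start site (TSS). There were 2622 such promoters among 6331 non-binding promoters (percent without a call 41.4%, exact 95% interval 40.2 to 42.6%) and among 9585 promoters of both tables. The cells were BE(2)-C, an established human neuroblastoma line with amplified MYCN, treated for 24 hours with a control siRNA or with WDR5 siRNA-1. WDR5 is a core subunit of the complexes that methylate lysine 4 of histone H3. One H3K4me3 library per siRNA gave the calls, so there is no replicate and no test, and intervals cover only the number of promoters counted. BE(2)-C is a clonal subline, so both groups come from 1 clone and, as far as the labels say, differ in the siRNA. The title of the control H3K4me3 library ends in a 2 that no other title carries, and its meaning is not stated. The files give a list entry or none for each gene, with no peak height or read number, so depth is unknown and an unlisted promoter is a missing call, not a measured absence of the mark. The lists rest on a distance of 1 kb and on a peak calling threshold, but hold no value for either, so promoters just inside or outside these limits cannot be given. The IgG and input libraries, 2 of each, are not used here. The promoters are called unlisted below because only a call is missing.

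H3K4me3 is deposited around the start sites of active and poised genes, mainly by the SETD1 and MLL complexes that WDR5 helps to assemble. In mammals it follows CpG islands, stretches rich in the CG dinucleotide, where CXXC-domain proteins bind unmethylated DNA and recruit these complexes. Promoters of tissue-restricted genes often lack such islands, can carry a TATA box instead, and usually gain the mark only in the cell type that uses them. N-Myc, the MYC-family factor encoded by MYCN, binds the E-box CACGTG and is found mostly at promoters that are already open.

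The labelled cell type was checked against its markers. Of 11 adrenergic neuroblastoma markers, 8 were listed in both libraries, among them PHOX2A, HAND2, GATA3 and ISL1, and TH, DBH and DDC only with control siRNA. None of the 11 was unlisted. All 8 blood markers, all 4 liver markers and all 4 muscle markers were unlisted, as were 5 of 6 epithelial markers (KRT18 was listed with control siRNA) and 4 of 5 Schwann cell markers (ERBB3 was listed in both). Among the unlisted markers, PTPRC, CD3D, CD3E, MS4A1, KRT5, TTR, MYOG, ACTA1 and S100B were rows of the non-binding table and so are members. MYC, also a non-binding promoter, was listed with control siRNA and is not one, and MYCN, WDR5, ACTB and GAPDH were listed in both.

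The promoter sequences below are shown because DNA composition was the clearest property that the unlisted promoters shared and that their choice did not use. Each is the 250 bases before the RefSeq start of the gene (GRCh38.p14), 5′ to 3′ on the gene's strand, in lower case. Capitals mark every CG dinucleotide and, where present, a TATAAA 40 to 20 bases before the start. The first 4 are the unlisted promoters with the fewest CpGs among those with such a TATAAA, and the next 3 are the unlisted promoters with the most CpGs. TLE1, a transcriptional corepressor gene in row 1 of the non-binding table and listed in both libraries, is given for comparison.
AMY2A (pancreatic amylase, chr1:103617177-103617426, + strand): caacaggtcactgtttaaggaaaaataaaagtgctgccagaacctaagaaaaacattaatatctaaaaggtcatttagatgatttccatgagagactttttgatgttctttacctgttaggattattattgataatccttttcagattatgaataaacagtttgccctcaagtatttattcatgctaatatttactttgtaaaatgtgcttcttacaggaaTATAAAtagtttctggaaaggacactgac
CSN3 (the milk protein kappa-casein, chr4:70238131-70238380, + strand): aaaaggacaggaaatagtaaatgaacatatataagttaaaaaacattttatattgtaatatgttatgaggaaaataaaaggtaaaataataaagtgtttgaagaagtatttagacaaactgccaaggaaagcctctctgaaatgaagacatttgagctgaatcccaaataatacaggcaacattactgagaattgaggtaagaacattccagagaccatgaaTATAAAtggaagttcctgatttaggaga
ANXA10 (an annexin, chr4:168092287-168092536, + strand): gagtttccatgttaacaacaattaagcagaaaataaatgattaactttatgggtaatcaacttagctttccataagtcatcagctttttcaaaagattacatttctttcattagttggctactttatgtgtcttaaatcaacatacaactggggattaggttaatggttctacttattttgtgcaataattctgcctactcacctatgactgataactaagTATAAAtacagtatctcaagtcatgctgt
CYP2C8 (a drug-metabolising cytochrome P450, chr10:95069498-95069747, - strand): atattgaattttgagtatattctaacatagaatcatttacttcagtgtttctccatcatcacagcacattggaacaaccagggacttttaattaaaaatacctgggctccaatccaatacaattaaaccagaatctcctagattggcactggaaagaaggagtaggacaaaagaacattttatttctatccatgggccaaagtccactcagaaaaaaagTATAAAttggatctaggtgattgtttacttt
CACNA1D (a voltage-gated calcium channel subunit, chr3:53494361-53494610, + strand): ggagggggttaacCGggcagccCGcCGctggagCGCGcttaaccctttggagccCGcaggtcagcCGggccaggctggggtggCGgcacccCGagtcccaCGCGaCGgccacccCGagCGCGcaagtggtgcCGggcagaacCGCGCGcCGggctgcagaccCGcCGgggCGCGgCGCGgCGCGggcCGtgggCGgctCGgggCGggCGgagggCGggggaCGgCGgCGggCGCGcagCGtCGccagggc
PLXNA1 (a semaphorin co-receptor, chr3:126982865-126983114, + strand): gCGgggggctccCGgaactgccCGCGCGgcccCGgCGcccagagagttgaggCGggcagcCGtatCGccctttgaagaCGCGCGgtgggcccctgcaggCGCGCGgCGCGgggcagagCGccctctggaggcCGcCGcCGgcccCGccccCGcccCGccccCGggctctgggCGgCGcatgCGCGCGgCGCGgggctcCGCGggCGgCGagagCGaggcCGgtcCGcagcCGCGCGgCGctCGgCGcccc
PTPRT (a receptor tyrosine phosphatase, chr20:43189907-43190156, - strand): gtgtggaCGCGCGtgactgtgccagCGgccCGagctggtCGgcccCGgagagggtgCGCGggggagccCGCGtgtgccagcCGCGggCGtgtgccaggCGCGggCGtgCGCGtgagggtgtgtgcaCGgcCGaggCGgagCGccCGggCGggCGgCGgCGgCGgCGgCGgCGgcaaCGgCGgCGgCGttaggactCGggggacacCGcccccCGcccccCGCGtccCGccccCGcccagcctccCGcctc
TLE1 (chr9:81689548-81689797, - strand): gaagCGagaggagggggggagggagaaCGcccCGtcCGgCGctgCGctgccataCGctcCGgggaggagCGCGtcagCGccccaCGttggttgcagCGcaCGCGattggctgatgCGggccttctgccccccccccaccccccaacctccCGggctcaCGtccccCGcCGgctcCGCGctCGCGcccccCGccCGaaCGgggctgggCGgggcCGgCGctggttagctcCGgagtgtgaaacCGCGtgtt

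The first 4 sequences hold no CG at all, and their TATAAA begins 29 (AMY2A), 28 (CSN3), 29 (ANXA10) and 31 (CYP2C8) bases before the start. The printed bases of CACNA1D hold 41 CGs, those of PLXNA1 46 and those of PTPRT 44, more than the 33 of the listed promoter TLE1. In these RefSeq windows, high CpG content alone did not separate CACNA1D, PLXNA1 and PTPRT from TLE1. By the rule that chose them, all 7 unlisted genes had no call with control siRNA and none with WDR5 siRNA. The deposited hg19 start sites of these genes are chr1:104159999 for AMY2A, chr4:71108333 for CSN3, chr4:169013688 for ANXA10, chr10:96829254 for CYP2C8, chr3:53529076 for CACNA1D, chr3:126707437 for PLXNA1 and chr20:41818557 for PTPRT. These positions were not converted between builds, so a printed sequence can belong to another start of the gene than the deposited one. AMY2A belongs to a cluster of near-identical amylase copies, so a call there would be hard to place on 1 gene.

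Most unlisted promoters were CpG-poor. A 300-base RefSeq window (250 bases before to 50 after the start) was called CpG-rich when its GC content was at least 50% and its observed/expected CpG ratio at least 0.6. By this rule 448 of 2024 unlisted windows were CpG-rich (22.1%, exact 95% interval 20.3 to 24.0%). Among non-binding promoters listed in both libraries 2053 of 2438 were (84.2%, interval 82.7 to 85.6%), and among those listed with control siRNA only 362 of 487 (74.3%, interval 70.2 to 78.2%). The small class listed with WDR5 siRNA only was CpG-poor too, with 8 of 26 CpG-rich windows (30.8%, interval 14.3 to 51.8%), so low CpG content was not particular to unlisted promoters. The median observed/expected ratio was 0.29 for unlisted promoters, 0.40 for WDR5-siRNA-only ones, 0.78 for control-only ones and 0.84 for those listed in both. The median window held 5 CpGs when unlisted and 27 when listed in both, and 120 unlisted windows (5.93%) held none, against 8 (0.328%) of those listed in both.

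A window was found for only 77.2% of the unlisted promoters, below the 80% needed to speak for the whole group, so as a check of all 2622 promoters the comparison is void. None of the 86 on chromosome 8 had one. On the 15 chromosomes whose non-binding promoters had windows for at least 80%, a restriction added after the data were seen, 1569 of 1803 unlisted promoters (87.0%) had a window. There 360 of 1569 were CpG-rich (22.9%, interval 20.9 to 25.1%), against 1605 of 1919 listed in both (83.6%, interval 81.9 to 85.3%). Windows were joined by gene symbol, and the RefSeq start can be another start of the gene than the deposited one.

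**Figure D1:**
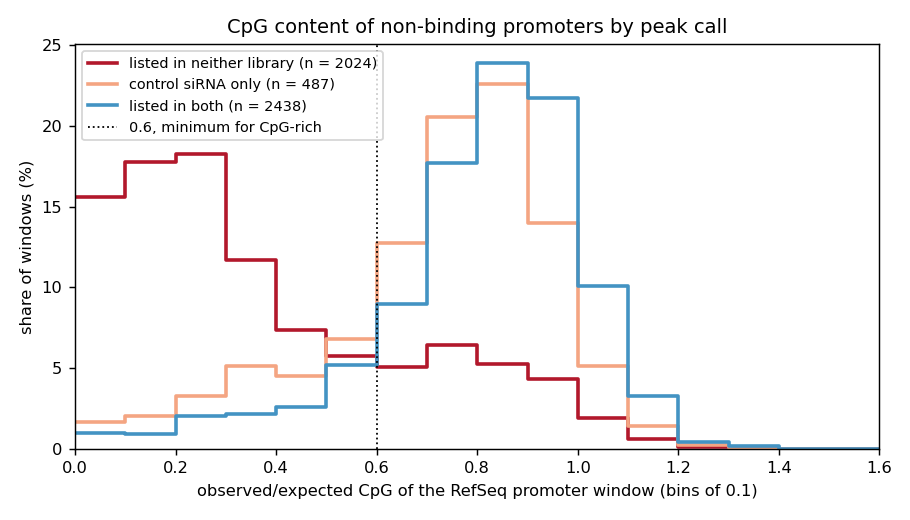
Observed/expected CpG ratio (x axis) of the RefSeq windows of non-binding promoters against the share of windows in bins of 0.1 (y axis, percent), by peak call. Unlisted promoters (2024 windows, median 0.29) lie mainly left of the dotted minimum of 0.6, and promoters listed in both (2438 windows, median 0.84) mainly right of it.

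Short sequence motifs were searched on both strands of each 300-base window. TATAAA, the core of the TATA box, was present in 18.6% of unlisted windows (376 of 2024), 3.77% of those listed in both and 12% of 27305 RefSeq windows of all genes. With its first base on the sense strand 40 to 20 bases before the start, where TATA boxes act, it was in 164 unlisted windows (8.10%), in 1.27% of those listed in both and in 2.55% of all RefSeq windows. It was in 3.29% of control-only windows and in 2 of the 26 WDR5-siRNA-only windows (7.69%), a share close to that of the unlisted ones. GGGCGG, the GC box bound by SP1-family factors, was in 29.9% of unlisted windows, 73.7% of those listed in both and 44.6% of all. The E-box CACGTG was in 94 unlisted windows (4.64%), in 7.14% of non-binding windows listed in both and in 15.1% of N-Myc-binding windows listed in both, with 7.43% in all RefSeq windows. GGGCGG and CACGTG each contain a CG, so their shares move with CpG content. CCAAT, which contains none, was in 36.3% of unlisted windows, 36.8% of those listed in both and 35.7% of all, so this motif did not follow the calls. A match is letters in a window and does not show that a factor binds.

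The genes of the unlisted promoters were also shorter. Their median RefSeq span was 23 kb (2617 genes matched), against 45.7 kb for non-binding genes listed in both and 38.3 kb for control-only ones. N-Myc-binding genes listed in both were nearer, at 30.3 kb. The 219 unlisted olfactory receptor genes had a median span of 2378 bases, and the spans were not compared without them. Spans under 2 kb numbered 203 (7.76%), against 24 (0.797%) of those listed in both. Of the 2622 unlisted names, 2610 matched a protein-coding gene and 7 a transcribed pseudogene.

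Of the 2622 unlisted promoters, 1130 (43.1%) stood in any of the gene lists, leaving aside the smaller families added later. The majority stood in none, so the groups below describe only part of the unlisted promoters. Genes of the senses formed the largest named group of unlisted promoters. Of 282 eye, ear and chemosensory genes in the non-binding table, 275 were unlisted (97.5%, interval 95 to 99.0%), beside 41.4% of the whole table. Olfactory receptors, the odorant-binding G protein-coupled receptors of the nasal epithelium, made up 219 of them, out of 221 in the table and 8.35% of all unlisted promoters. The exceptions were OR2L13, listed with control siRNA only, and OR4Q3, listed with WDR5 siRNA only. Of 16 taste receptors 15 were unlisted, and TAS2R16 was listed with WDR5 siRNA only. The other listed genes of the group were OPN3, COCH and BFSP1 in both libraries and MYO7A with control siRNA only. Unlisted photoreceptor and ear genes included GUCY2D, a retinal guanylyl cyclase, PDE6B, a subunit of the rod phosphodiesterase, OPN4, which encodes melanopsin, RPE65, the retinoid isomerase, and TMC2, a hair cell channel component. Of the 221 sensory windows (80.4% of the unlisted members of the list), 6 were CpG-rich (2.71%), and the median observed/expected ratio of the olfactory receptors was 0.13 (175 of 219 windows, 79.9%). Only 3 of 175 olfactory receptor windows held the positioned TATAAA (1.71%).

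Epithelial structural genes were almost all unlisted. Of 31 keratin genes, which encode the intermediate filaments of epithelia and hair, 30 were unlisted (96.8%, interval 83.3 to 99.9%), with KRT18 the exception. All 28 genes of the cornified envelope and epidermis were unlisted (100%, interval 87.7 to 100%). They included DSG4, DSG3 and DSC3 of the desmosome, the kallikrein proteases KLK6, KLK7 and KLK8, and TP63, the p63 regulator of stratified epithelium. Among junction and mucin genes 25 of 28 were unlisted (89.3%), such as CLDN1, CLDN2, OCLN and the transcription factors ELF3 and EHF, while CLDN3, CLDN7 and PRSS8 were control-only. The positioned TATAAA stood in 8 of 20 keratin windows (40%) and 6 of 24 epidermal windows (25%), and no keratin window was CpG-rich.

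Blood and immune genes followed the same pattern. Of 52 blood and immune cell markers 49 were unlisted (94.2%, interval 84.1 to 98.8%), among them PTPRC, which encodes CD45, the T cell receptor chains CD3D, CD3E and CD3G, and CD2. EOMES, RUNX3 and TAL1, all transcription factor genes, were control-only, and no marker of this list was listed in both. Of 109 cytokine, chemokine and receptor genes 89 were unlisted (81.7%), 14 were listed in both, 5 were control-only and 1 was listed with WDR5 siRNA only. Examples of the unlisted were CXCL12, CSF3, CXCL10 and the receptor TNFRSF14. For this list 6 of 73 windows were CpG-rich (8.22%). Toll-like receptor, complement and coagulation genes were unlisted in 33 of 38 cases (86.8%), among them TLR1, TLR2, TLR3, TLR6 and TLR7. Within that list TLR4 was listed with WDR5 siRNA only, TLR5 and F10 with control siRNA only, and C8G and PROS1 in both.

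Genes of liver, gut and pancreas were mostly unlisted. The liver and plasma protein list had 26 of 28 unlisted (92.9%), including AFP, which encodes alpha-fetoprotein, the apolipoproteins APOA2, APOB and APOH, the carriers TTR and TF, and the nuclear receptor HNF4A. FOXA1, a pioneer factor, was control-only. Of 36 gut and pancreas genes 32 were unlisted (88.9%), among them SST, PPY, GHRL, IAPP, PDX1 and PTF1A. LGR5, NKX6-1 and PRSS3 were listed in both and NEUROG3 was control-only. Cytochrome P450, UGT and sulfotransferase genes, which oxidise or conjugate steroids and drugs, were unlisted in 31 of 40 cases (77.5%). Antimicrobial, milk and saliva genes had 29 of 31 unlisted (93.5%), with CST3 and RNASE4 listed in both. The positioned TATAAA was in 9 of 24 gut and pancreas windows (37.5%) and 6 of 20 liver windows (30%).

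Skeletal and cardiac muscle genes had 33 of 34 promoters unlisted (97.1%, interval 84.7 to 99.9%). They included the muscle regulators MYOG, MYF5 and MYF6, the actins ACTA1 and ACTC1, and the creatine kinase CKMT2. ACTN2, an alpha-actinin gene, was listed in both. Of 28 muscle windows 9 held the positioned TATAAA (32.1%) and 2 were CpG-rich (7.14%). Germline and testis genes were unlisted in 36 of 51 cases (70.6%), with SOHLH1, ADAM2, DPPA4 and FIGLA among them, and 11 were listed in both. None of their 27 windows, which covered 75% of the unlisted members of the list, held the positioned TATAAA.

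Developmental transcription factor genes had an unlisted share whose interval held that of the table, but more of them were control-only. Of 136 outside the HOX clusters 67 were unlisted (49.3%, interval 40.6 to 58.0%), 27 were control-only (19.9%, beside 10.4% of the table) and 41 were listed in both (30.1%, beside 47.7%). Unlisted examples were POU2F2, FOXI2, PRRX1, TLX3, FOXL2 and ALX4. In contrast to the tissue-restricted structural genes, 28 of their 52 windows were CpG-rich (53.8%), with a median observed/expected ratio of 0.70, over 77.6% of the unlisted members of the list. Of 35 HOX genes, the homeodomain genes of body axis patterning, 18 were unlisted (51.4%). These were 8 of 11 in HOXA, among them HOXA5, HOXA6 and HOXA7, 8 of 10 in HOXB (HOXB1 to HOXB8), 2 of 9 in HOXD (HOXD3 and HOXD4) and 0 of 5 in HOXC.

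Neuronal receptor and channel genes were divided. Neurotransmitter receptors had 59 of 103 unlisted (57.3%, interval 47.2 to 67.0%), including the glutamate receptor genes GRIN2A, GRM3 and GRIK1 and the neuropeptide Y receptor NPY1R. Of 107 genes in the voltage-gated channel list 52 were unlisted (48.6%, interval 38.8 to 58.5%), a share near that of the table. CACNA1D, KCNA4 and SCN10A were among them. That list also holds KCNJ, KCNK and TRP channels, which are not classed as voltage-gated, so its share is not one of voltage-gated channels alone. Solute carriers stood at 93 of 165 (56.4%), cadherins and protocadherins at 28 of 47 (59.6%) and collagen and matrix genes at 59 of 96 (61.5%). The orphan and adhesion receptor list, which also holds receptors with known ligands such as PTGER2 and FFAR1, stood at 40 of 62 (64.5%). Among the matrix genes, COL4A3 (chr2:228029281) and COL4A4 (chr2:228029275), which encode type IV collagen chains and are transcribed away from each other, stood in adjacent rows, 3687 and 3686, and neither had a call in either library. Of 13 protocadherin beta genes 12 were unlisted, and PCDHB16 was control-only.

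Of the 24 lists with at least 10 names in the table, 3 had an unlisted share below 41.4%. The lists were chosen with earlier results of these data known and some share genes, so this count is a description only. No gene of 31 for the mitochondrial ribosome and respiratory chain was unlisted (interval 0 to 11.2%). Zinc finger (ZNF) genes had 5 of 74 unlisted (6.76%, interval 2.23 to 15.1%), namely ZNF665, ZNF366, ZNF217, ZNF536 and ZNF474. Adrenergic neuroblastoma genes had 5 of 35 unlisted (14.3%, interval 4.81 to 30.3%). These were SLC18A1, a vesicular monoamine transporter, SYT1, the synaptic vesicle calcium sensor synaptotagmin, ELAVL4, a neuronal RNA-binding protein, KLF7 and ZNF536. Their deposited start sites were chr8:20040717 for SLC18A1, chr12:79439433 for SYT1, chr1:50574594 for ELAVL4, chr2:207998861 for KLF7 and chr19:30863328 for ZNF536. Of 5 housekeeping genes in the non-binding table none was unlisted, and the same held for the only ribosomal protein gene and for RBBP5 and CXXC1, both subunits of H3K4 methyltransferase complexes.

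**Figure D2:**
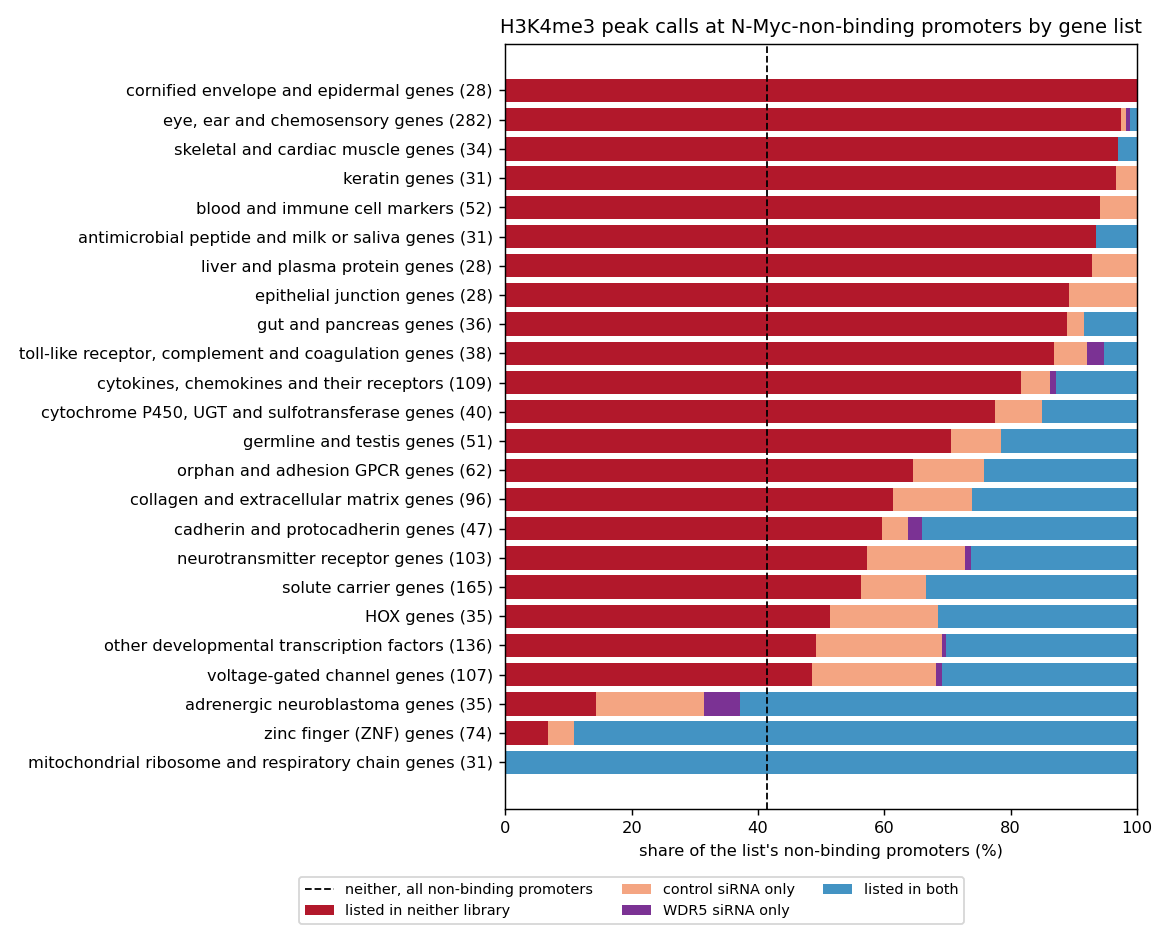
Share of each gene list's non-binding promoters (x axis, percent; number of promoters in brackets) by peak call, with the share of all non-binding promoters listed in neither library as a dashed line. The unlisted share runs from 100% for cornified envelope and epidermal genes to 0 for mitochondrial ribosome and respiratory chain genes.

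Some unlisted promoters followed each other along a chromosome, in part in gene clusters. Genes in neither promoter table were skipped here, listed ones among them, so promoters of a run need not be direct neighbours. When the promoters of both tables were ordered along each chromosome (hg19), 597 unlisted non-binding promoters (22.8%) lay in 72 runs of at least 5 consecutive unlisted promoters, and 262 lay in 17 runs of at least 10. Of all 1589 runs, 1050 consisted of a single promoter. The longest run held 40 promoters, 39 of them olfactory receptors, from OR4B1 to LRRC55 on chromosome 11 (48238362 to 56949221, 8.71 Mb). It is not a single compact cluster, since no promoter of either table lay between OR4C46 (51515282) and OR4A16 (55110677). The next run held 38, from OR51D1 to PRKCDBP on chromosome 11 (4660945 to 6341740), 32 of them olfactory receptors together with the embryonic globin gene HBE1. A run of 17 on chromosome 17 (38860002 to 39743147) held 16 type I keratins, and a run of 14 on chromosome 12 (52585784 to 53207900) consisted of keratins alone. A run of 17 on chromosome 4 (68621804 to 71494461) joined UGT2B and sulfotransferase genes, the caseins CSN2 and CSN3 and the enamel genes AMBN and ENAM. Further runs were 10 promoters, 9 of them of the MS4A family, which includes the B cell antigen CD20, on chromosome 11 (59612974 to 60552821), 9 matrix metalloproteases on chromosome 11 (102401478 to 102826463) and 9 comprising SKAP1 and HOXB1 to HOXB8 on chromosome 17 (46507594 to 46692301). Members of such clusters share sequence and position and are not independent of each other.

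By chromosome the unlisted share ran from 28.7% (29 of 101) on chromosome 22 to 54.3% (259 of 477) on chromosome 11, among chromosomes with at least 20 non-binding promoters. On chromosome 11 the 110 olfactory receptors in the table were all unlisted. Without them its share was 40.6%, beside 39.3% for the whole table without olfactory receptors. Chromosome 21 had 51.6% unlisted (32 of 62, interval 38.6 to 64.5%) with no olfactory receptor in the table.

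**Figure D3:**
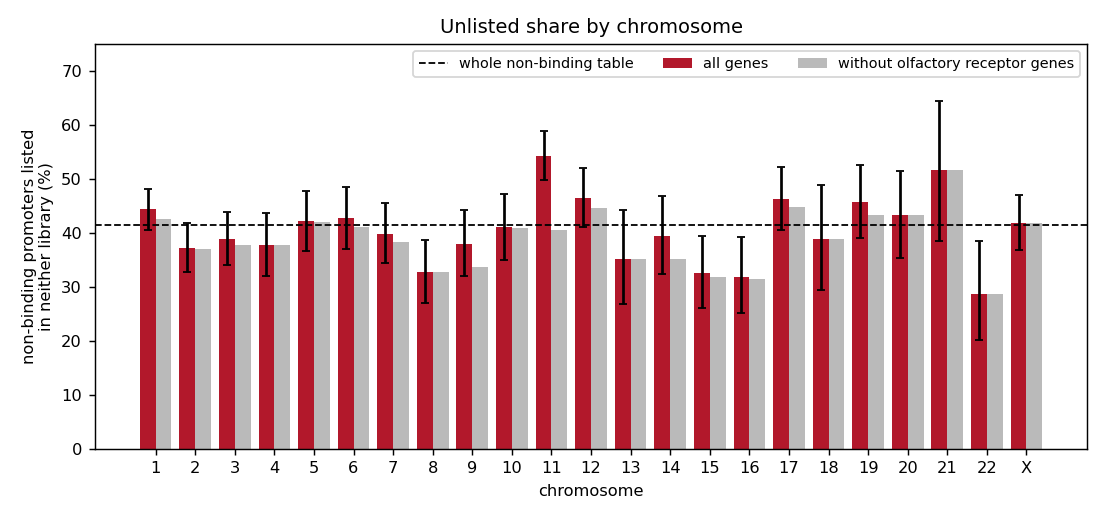
Share of non-binding promoters listed in neither library (y axis, percent) for each chromosome with at least 20 of them, for all genes (red, bars give exact 95% intervals over promoters) and without olfactory receptors (grey). The red bar of chromosome 11 stands at 54.3% and its grey bar at 40.6%, next to the dashed 41.4% of the whole table.

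None of the 2622 unlisted promoters had a listed promoter of either promoter table within 1 kb, against 157 of 3019 (5.20%) of those listed in both. The rule largely fixes this, because a peak close to 1 of 2 such start sites would usually count for both. Listed genes outside the promoter tables have no start site here and could not be counted as neighbours at any distance. Within 5 kb, 27 unlisted promoters (1.03%) had a listed one, the nearest being TTC23 at 1837 bases from LRRC28, CACNA1F at 2094 bases from CCDC22 and CLDN6 at 2125 bases from TNFRSF12A. The antisense transcript of 13 unlisted genes was itself listed, 9 in both libraries and 4 with control siRNA only. Examples are TTN, the giant muscle protein titin, with TTN-AS1 listed in both, and SHANK2, a synaptic scaffold, with SHANK2-AS1 listed with control siRNA only. The lists name genes and give no position, so whether such a call lies near the promoter described here is unknown.

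The deposited row order, whose meaning the headers do not give, followed the calls closely. The title of the non-binding table speaks of H3K4me3 quantification, though it holds no values. Its rows may therefore not be independent of the calls, and whether they rank H3K4me3 signal was not tested. The first 2572 rows of the non-binding table held no unlisted promoter, and rows up to the middle of the table held 5. After the first 60% of rows, 2437 of 2533 promoters were unlisted (96.2%), and the last unlisted promoter stood in row 6324 of 6331. In the last decile of rows 586 of 633 were unlisted, and 27 of the remaining promoters were listed with WDR5 siRNA only. The first unlisted rows were F8A1 (row 2573), CKMT1A (2604), GTF2H2 (2691), ROPN1 (2986) and SLC7A4 (3084). F8A1, CKMT1A, GTF2H2 and ROPN1 belong to genes with near-identical copies elsewhere in the genome. Of the other copies F8A2, F8A3, CKMT1B, GTF2H2B and ROPN1B were in neither list, and GTF2H2C was listed with control siRNA only. Calls at such copies are uncertain, since the files do not show how reads shared between copies were treated. The last unlisted rows were NAV3 (6309), TSHB (6311), AKR1D1 (6313), CRYBB2 (6314) and FLRT3 (6324).

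**Figure D4:**
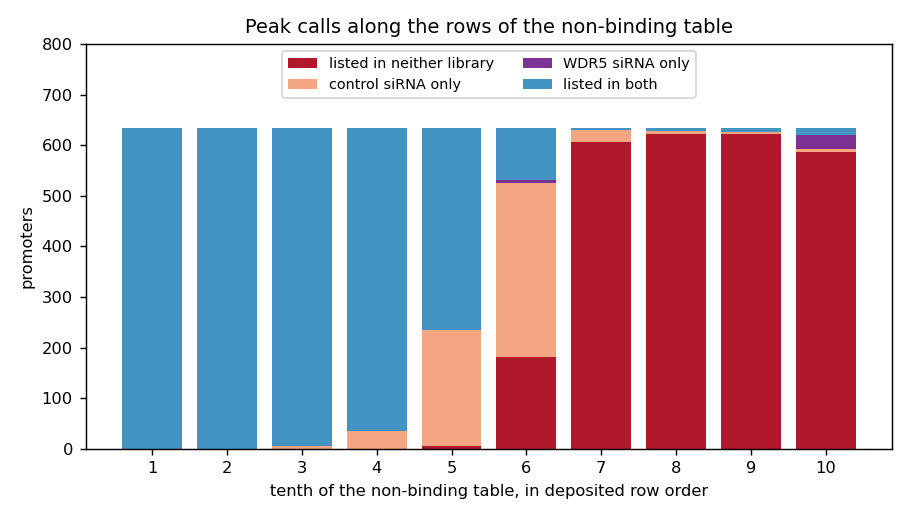
Number of promoters (y axis) by peak call in each decile of the non-binding table, in deposited row order (x axis). No promoter of the first 4 deciles is unlisted, and in deciles 7 to 10 the unlisted ones number 606, 622, 622 and 586.

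Among the unlisted promoters themselves, CpG content was lower in later rows. They were divided in row order into 4 sets of 655 or 656. The first set (rows 2573 to 4293) had 36.5% CpG-rich windows, the second 23.9%, the third 17.8% and the last (rows 5629 to 6324) 11.1%. The median observed/expected ratio went from 0.45 in the first set to 0.23 in the last. Windows were found for 74.7% to 79.0% of each set, under the 80% needed to speak for it. The positioned TATAAA did not follow the rows, at 7.35%, 7.97%, 9.07% and 7.98%. The first set held 33 of the 67 unlisted developmental transcription factors and 7 of the 18 unlisted HOX genes, but 25 of the 219 olfactory receptors. HOXA7, HOXA6 and HOXA5, neighbours in the HOXA cluster, stood in rows 3471, 3496 and 3513. Gene span showed no such order, with medians of 22.6, 20.3, 23.6 and 24.6 kb.

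The N-Myc-binding table held few comparable promoters. There 163 of 3254 were unlisted (percent without a call 5.01%), and 89 of their 128 windows were CpG-rich (69.5%, interval 60.8 to 77.4%), against 22.1% of the unlisted non-binding windows. On the 15 chromosomes with enough windows the shares were 68.8% (66 of 96) and 22.9%. The median observed/expected ratio was 0.80 in the unlisted N-Myc-binding promoters and 0.29 in the unlisted non-binding ones, and CACGTG was in 14.1% and 4.64% of windows. The median gene span was 53.7 kb against 23 kb. The sources used here do not say how the N-Myc classes were made, and whether the classes differ in CpG content by definition was not tested.

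**Figure D5:**
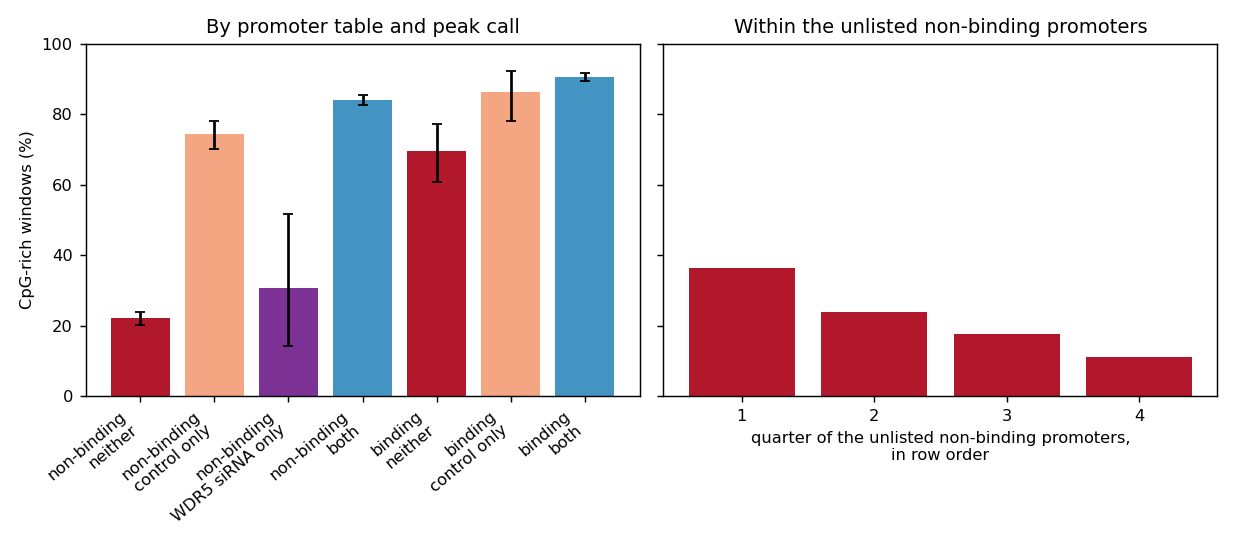
Share of CpG-rich RefSeq windows (y axis, percent) by promoter table and peak call (left, bars with exact 95% intervals over windows) and within the unlisted non-binding promoters in 4 equal sets by row order (right). Unlisted non-binding promoters stand at 22.1%, inside the wide interval of the WDR5-siRNA-only group and below the intervals of the other groups shown, and their sets go from 36.5% to 11.1%.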

How the data were processed

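BE(2)-C cells were profiled by ChIP-seq in 6 libraries, with 2 for H3K4me3, 2 for IgG and 2 for input, 1 of each per siRNA, and groups were read from the titles. Only the H3K4me3 calls were used. BWA 0.7.12, bedtools and genome build hg19 are named in the submitters' processing notes, with no role. Peak caller, threshold and control: not given in the sources used here. The 3 deposited files hold gene names and hg19 start sites in no measured unit. Start sites are printed 1-based, from the end of each 1-base interval.

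Each list was taken as its set of distinct names (13618 with control siRNA, 11870 with WDR5 siRNA) and joined exactly. Promoter windows of RefSeq (GRCh38.p14, first window of a gene) were joined by symbol or unambiguous synonym. Of the 2622 members, 2617 matched a symbol and 2024 a window. No coordinates were converted. Some genes that the rule names are not reported here. The members, the 31 gene lists and the rule for named genes (up to 6 unlisted members per list in list or row order, small exceptions and the ends of the row order) were chosen with earlier results of these data known. Smaller families (olfactory, taste, claudin, protocadherin beta, kallikrein, C-type lectin, HOX clusters) and the other genes named were chosen after their values were seen. Of the lists, 2 (LINC or antisense names, small RNA names) had no row in the table, LOC and accession-style names had 3 of 4 unlisted, and replication-dependent histone genes had 1 of 2. Sequence functions were tested on simulated data. Intervals are Clopper-Pearson at the 95% level. Versions were scipy 1.17.1, pandas 2.3.3, numpy 2.4.6, matplotlib 3.10.9 and Python 3.11.15.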

Additional observations from a re-analysis of the deposited data

How the results depend on the processing

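The unlisted share of 41.4% stayed within its interval with names matched through synonyms, without LOC and accession-style names, on autosomes, without promoters within 2 kb of another, and with the control list alone. It was 51.8% with the WDR5 siRNA list alone, which adds control-only promoters, and 39.3% without olfactory receptors. The CpG-rich share of 22.1% became 14.9% with an observed/expected minimum of 0.75, 26.0% when any window of a gene could qualify, 19.3% for genes with 1 window and 24.1% without olfactory receptors, and was within its interval in the other settings tried. The TATAAA share of 18.6% became 8.10% at the fixed position and 22.0% with TATATA added. Listed neighbours among the promoters of both tables rose from 0 to 1.03% at 5 kb. The share on chromosome 11 became 40.6% without olfactory receptors. In each of the 4 name and position settings 21 of 24 lists lay above the table. The intervals of the HOX, developmental transcription factor and voltage-gated channel lists held 41.4%. Since the lists were chosen with earlier results known and some share genes, this count is a description only. The synonym match rested on 1 name, AC2, a synonym of ADCY2 (chromosome 5) that stands between S100 genes in the control list. Settings without olfactory receptors, any window, 1 window and selected chromosomes were chosen after the data were seen. Alternatives on levels were not run, since the files hold none. Depth is unknown. No paired analysis was possible because each group holds 1 library.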

Other observations

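A look at names that start alike, chosen after the data were seen, showed further families among the unlisted promoters. All 15 CLEC names, which encode C-type lectin domain proteins, many of them receptors of immune cells, were unlisted, as were 14 of 15 names made of PLA and a number. The 14 comprised phospholipase A2 genes such as PLA2G1B, PLA2G2D, PLA2G4A and PLA2G7 and the receptor gene PLA2R1. Of 13 RGS names, regulators of G protein signalling, 9 were unlisted. Of 12 WNT names 5 were unlisted, namely WNT10A, WNT16, WNT5A, WNT8A and WNT8B, a share of 41.7% beside 41.4% of the table. Other families had few unlisted names. Of 28 RAB names only RAB17 and RAB19 were unlisted, of 19 KIF names only KIF2B, and of 14 VPS names none.

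Some unlisted promoters belonged to genes that most cell types use. EGLN1, the oxygen-sensing prolyl hydroxylase, stood in row 6288, and IKBKG, a subunit of the IKK complex, in row 3818. These genes were picked after their calls were seen.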
